A study of Mus musculus with 6 samples.

Results

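Integrins are the paired receptors by which cells hold on to matrix and to each other, and the genes described here code for 10 of their subunits: Itgav, Itgb3, Itgb5, Itga4, Itga5, Itga6, Itgb1, Itgb2, Itgb7 and Itgam. They were taken by name as integrin subunits of macrophages and osteoclasts, with every probe set that the platform annotation paired with 1 of these symbols alone. This gave 31 probe sets of 34945 single-gene probe sets, for 10 of 18193 genes. The groups were knockin (KI) and wild-type (WT) C57BL/6 mice, with 3 arrays each. Macrophages grown from bone marrow received M-CSF (44 ng/ml) together with RANKL (100 ng/ml) for 24 h in both groups. M-CSF keeps the precursors alive, and RANKL drives their change into bone-resorbing osteoclasts. The series title names the IVVY motif of RANK, the receptor of RANKL, and the residues that the knockin alters are not described in the labels. The labels do not say whether the 3 arrays of a genotype came from separate animals or from dishes of 1 cell pool, so p-values measure the spread between these arrays, which may be technical.

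Each integrin is 1 alpha and 1 beta subunit, and the alpha subunit reaches the cell surface only with a partner. In osteoclasts, alpha v beta 3, the vitronectin receptor, holds the cell to bone and signals through Src, while alpha v beta 5 is known from the macrophage precursors and declines as beta 3 appears. Beta 1 pairs with alpha 4, alpha 5 and alpha 6 to bind VCAM-1, fibronectin and laminin, beta 7 is another partner of alpha 4, and alpha M beta 2 (Mac-1, CD11b/CD18) is the complement receptor of myeloid cells.

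The values were the deposited intensities of Affymetrix arrays, 1 per probe set and array. An intensity can be compared between arrays for 1 probe set, but not between probe sets. Differences are on the log2 scale, KI minus WT, with intensities below 16 set to 16. A probe set was called higher or lower when its p-value from limma, adjusted by the Benjamini-Hochberg method over 22518 probe sets, lay below 0.05. The median intensity of the 6 arrays lay between 83.0 and 84.8. The first principal component held 82.2% of the variance and separated the genotypes, with scores of -54.0 to -32.1 for the KI arrays and 29.4 to 66.5 for the WT arrays, WT 1 lying farthest out. No array pair was identical, with correlations of 0.972 to 0.998.

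The cell label was checked against marker genes. Their calls came from a limma fit of all 18193 genes, each by its brightest probe set. In that fit 11.9% of all genes were higher and 14.9% lower in KI. Of all 18193 genes, 10941 were above the filter, so lists that lie mostly above it have an unlike base. All 7 macrophage markers were above the filter on dim probe sets, their summed intensity lay between 132225 and 137652 on the KI arrays and between 89100 and 108588 on the WT arrays, and 6 were higher in KI. Of 8 osteoclast markers, 7 were above the filter and Calcr, the calcitonin receptor, was not; their summed intensity lay between 32526 and 36356 in KI and between 70343 and 80776 in WT, and 7 were lower in KI. None of 7 measured mast cell and basophil markers was above the filter. Of 8 measured neutrophil and progenitor markers, 8 were above it, with summed intensities of 22195 to 43747 in KI and 15888 to 19911 in WT. S100a8 alone was called higher (limma adjusted p = 0.046). Ltf (log2 difference 1.00, limma adjusted p = 0.082), Camp (1.00, 0.057), Ngp (0.91, 0.089) and S100a9 (0.83, 0.066) did not pass. Their groups did not overlap, which also held for 8285 of all 18193 genes, and KI 1 was the highest array for each of them. Mpo (0.40), Prtn3 (0.31) and Elane (-0.05) overlapped. Of 7 measured B cell markers, 2 were above it, with sums of 6988 to 11331 in KI and 1801 to 4813 in WT, nearly all from 1 gene, Ighm, which had 10853, 6594 and 7248 in KI, against 1414, 2898 and 4303 in WT. None of the other measured B cell markers passed the test. Their log2 differences were -0.01 for Cd79b, -0.01 for Cd79a, -0.06 for Pax5, -0.24 for Igll1, 0.07 for Vpreb1 and 0.11 for Ebf1. Of these, only Cd79b was above the filter. Each sum is led by its brightest probe sets, so it describes a list and compares no markers with each other. The arrays measured whole cultures, so fewer cells of a type and less RNA per cell cannot be told apart. The part of these markers in the integrin differences was not tested.

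Promoters are shown for 4 members that differed between the genotypes, 2 that were higher and 2 that were lower in KI, because these are the regions where factors of the macrophage and osteoclast programmes can bind. RefSeq's table (GRCm38.p6) held promoters for 7 of the 10 members; those of Itga6, Itgb2 and Itgb3 are not shown. Each is 300 bases, from 250 before the table's start site to 50 after it, written 5′ to 3′ along the gene. Capitals mark matches, on either strand, to 4 short motifs: GAGGAA for PU.1, the master factor of myeloid cells, TGANTCA for AP-1, GGAAAA for NFAT and CANGTG for E-boxes. The last is a broad pattern, which takes in sites of MITF and also sites of other factors. Of 32851 promoters of the same length, 28.3% held the PU.1 motif, 7.81% the AP-1 motif, 23.4% the NFAT motif and 44.9% the E-box pattern. Itgb5 lies at chr16:33829415-33829714 on the plus strand, Itgam at chr7:128062390-128062689 on the plus strand, Itgav at chr2:83724147-83724446 on the plus strand and Itga5 at chr15:103366742-103367041 on the minus strand.
Itgb5: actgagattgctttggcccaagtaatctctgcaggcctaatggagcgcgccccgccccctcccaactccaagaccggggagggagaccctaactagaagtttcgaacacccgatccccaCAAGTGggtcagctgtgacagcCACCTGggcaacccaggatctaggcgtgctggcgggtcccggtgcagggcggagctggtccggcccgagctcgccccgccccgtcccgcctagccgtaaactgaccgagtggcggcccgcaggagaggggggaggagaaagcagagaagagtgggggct
Itgam: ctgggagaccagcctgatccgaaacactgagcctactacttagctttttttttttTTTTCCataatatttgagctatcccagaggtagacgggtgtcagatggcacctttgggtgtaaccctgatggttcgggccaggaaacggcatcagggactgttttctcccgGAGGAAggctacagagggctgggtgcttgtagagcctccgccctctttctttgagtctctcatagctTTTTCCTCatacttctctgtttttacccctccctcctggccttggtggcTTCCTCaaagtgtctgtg
Itgav: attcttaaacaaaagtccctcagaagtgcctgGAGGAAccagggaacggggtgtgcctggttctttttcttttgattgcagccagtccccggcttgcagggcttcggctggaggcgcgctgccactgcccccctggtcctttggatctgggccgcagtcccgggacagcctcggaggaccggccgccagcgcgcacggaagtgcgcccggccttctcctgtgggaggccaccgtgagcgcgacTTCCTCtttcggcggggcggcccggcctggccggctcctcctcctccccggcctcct
Itga5: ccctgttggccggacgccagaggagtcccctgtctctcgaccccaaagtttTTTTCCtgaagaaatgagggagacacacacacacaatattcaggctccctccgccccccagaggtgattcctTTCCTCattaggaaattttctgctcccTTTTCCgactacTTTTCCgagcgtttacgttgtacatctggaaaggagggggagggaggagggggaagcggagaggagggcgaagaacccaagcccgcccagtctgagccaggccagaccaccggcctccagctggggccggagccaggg
The Itgb5 promoter held 2 matches to the E-box pattern, CAAGTG and CACCTG, and none to the other 3 motifs. These letters do not mark MITF sites in particular. The Itgam promoter held 3 matches to the PU.1 motif, at -84 to -79, at -15 to -10 and at 32 to 37, with the start site counted as 0, and 2 to the NFAT motif, of which that at -17 to -12 overlaps the second PU.1 match. The Itgav promoter held 2 PU.1 matches, at -218 to -213 and at -7 to -2; its start site in the table lies 2094 bases inside the annotated gene, so that another start upstream is annotated too. The Itga5 promoter held 1 PU.1 and 3 NFAT matches. Among the promoters not printed, Itgb1 held 1 PU.1 match, Itgb7 held 1 PU.1 and 1 E-box match, and Itga4 held none. The AP-1 letters were in none of the 7 windows. A match is a run of letters and says nothing of binding.

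Of the 31 probe sets, 23 were above the filter. Of these 23, 9 were higher in KI, against 19.3% of all tested probe sets, 4 were lower, against 25.6%, and 10 did not pass the test. The KI and WT arrays did not overlap for 17 of the 23, against 60.9% of all tested probe sets. A 2-fold rise was reached by 6 of the 9, all of Itgb5 and Itga6, against 4.19% of all tested probe sets, and a 2-fold fall by 0, against 3.96%. The median difference of the 23 was 0.12, beside -0.04 over all tested probe sets. The 8 probe sets below the filter, 2 of Itgav, 1 of Itgb3, 1 of Itga4, 1 of Itga5 and 3 of Itgb1, had adjusted p-values of 0.12 to 0.81 in a limma fit of all probe sets. Array scaling sets the zero of these differences: with each array moved to a common mean of its hybridisation spike-ins, 7 were higher and 6 lower by the newer spike-in probe sets, and 6 higher and 7 lower by the older ones, while the median over all tested probe sets lay at -0.25 and -0.57. The sample descriptions hold a number per array whose meaning they do not give, and whose ranges overlap between KI and WT. With that number as a covariate, 6 probe sets were higher and 1 lower, and the calls of Itgav, Itgam, Itga4, 1 Itgb1 and 2 Itga5 probe sets were lost (limma adjusted p of 0.068 to 0.119).

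**Figure D1:**
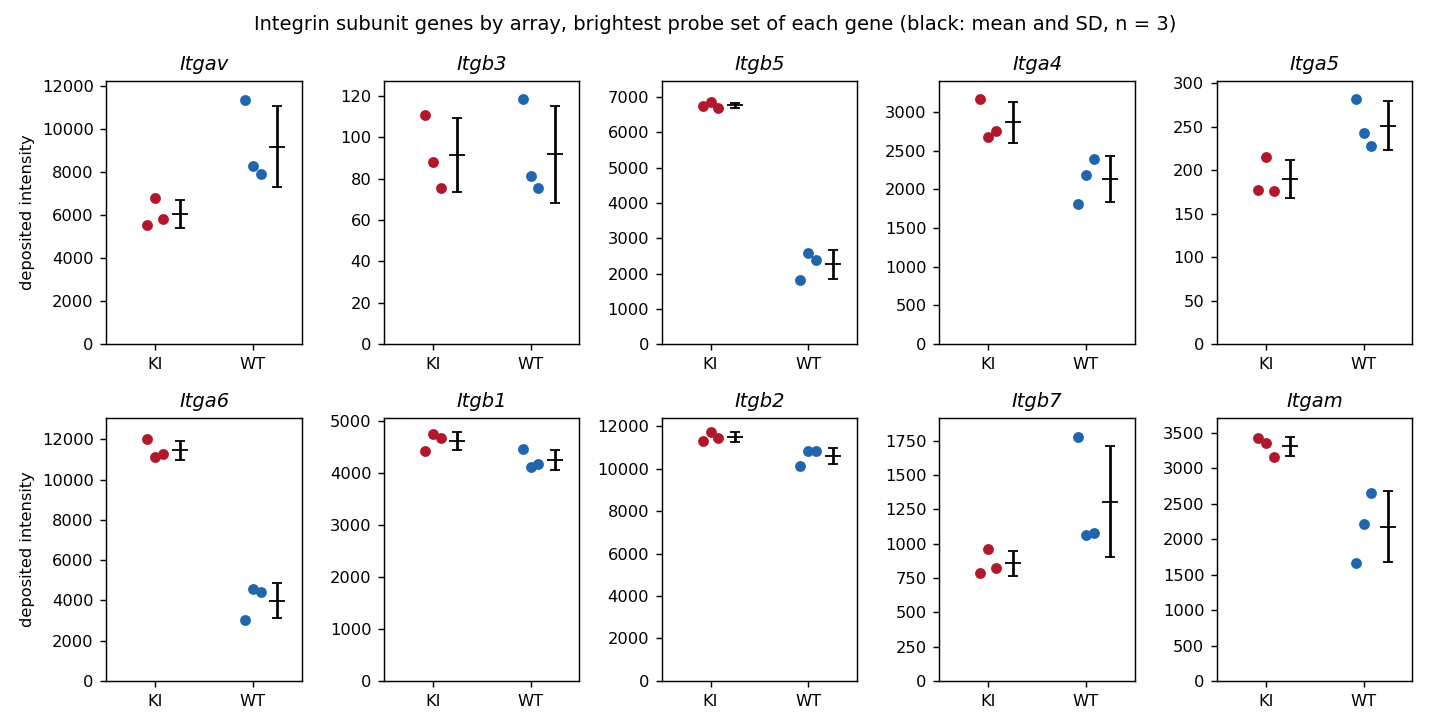
Intensity of the brightest probe set of each of the 10 integrin genes on linear axes from 0, with 1 point per array, KI to the left of WT, and a bar for the mean and SD of 3 arrays. The KI arrays of Itgb5 sit between 6703 and 6849, all above the WT arrays, and those of Itgb3 lie among the WT arrays.

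Itgb5 rose. It codes for beta 5, the partner of alpha v in macrophage precursors, and was about 3-fold higher in KI on all 4 of its probe sets. Probe set 1417533_a_at had 6753, 6849 and 6703 in KI, against 1814, 2589 and 2386 in WT. The 3 KI arrays were nearly alike, every one was far above every WT array, and WT 1 was the lowest. The means were 6768 ± 73.8 in KI and 2263 ± 402 in WT (SD, n = 3 each), a fold of 3.02 and a log2 difference of 1.60 (SE 0.13, 95% interval 1.29 to 1.90, limma adjusted p = 0.00053). Probe set 1456195_x_at had 3388, 3442 and 3477 in KI, against 865, 1178 and 1156 in WT, a difference of 1.70 (SE 0.13, limma adjusted p = 0.00039). Probe set 1417534_at had 5538, 5140 and 5089 in KI, against 1280, 1856 and 1884 in WT, a difference of 1.67 (SE 0.15, limma adjusted p = 0.00072). All 4 probe sets put WT 1 below the other WT arrays. Probe set 1456133_x_at, with 5302, 5313 and 5383 in KI, against 1353, 2059 and 2075 in WT, differed by 1.57 (SE 0.16, limma adjusted p = 0.0011). The 2 probe sets whose names end in _x_at can match other transcripts.

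Itgb3 did not pass the test. Its product beta 3 makes, with alpha v, the vitronectin receptor that marks osteoclasts. Probe set 1455257_at had 111, 87.9 and 75.6 in KI, against 119, 81.4 and 75.3 in WT. The values overlapped fully, and lay close to the dim end of the tested probe sets, whose filter stood at an intensity of 84.7. The means were 91.3 ± 17.7 in KI and 91.8 ± 23.4 in WT (SD, n = 3 each). The difference was 0.00 with a 95% interval of -0.49 to 0.50 (limma adjusted p = 0.99), so that a change of up to 0.49 either way is inside it. Its sign has no hold: it was -0.20 and -0.53 under the newer and older spike-in scalings. The second probe set, 1421511_at, was below the filter, with 65.8, 62.1 and 56.9 in KI, against 59.7, 52.0 and 63.8 in WT.

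Itgav fell on its brightest probe set. It codes for alpha v, the subunit that beta 3 and beta 5 share. Probe set 1452784_at had 5541, 6787 and 5804 in KI, against 11339, 8267 and 7923 in WT. Every KI array was below every WT array, and WT 1 stood above the other WT arrays. The means were 6044 ± 657 in KI and 9176 ± 1881 in WT (SD, n = 3 each), a difference of -0.59 (SE 0.15, 95% interval -0.94 to -0.24, limma adjusted p = 0.018). The call was lost without the filter on dim probe sets (limma adjusted p = 0.066), without KI 1 (0.059) and without KI 3 (0.062). Probe set 1421198_at had 198, 300 and 230 in KI, against 894, 390 and 337 in WT. The groups did not overlap, WT 1 was more than 2-fold above the other WT arrays, and the difference of -1.04 (SE 0.37) did not pass the test (limma adjusted p = 0.056). It passed without WT 1, at -0.60, and without WT 3, at -1.31 (limma adjusted p = 0.036 each), and under the newer spike-in scaling, at -1.24 (0.030). Probe set 1432296_a_at had 89.9, 91.9 and 91.5 in KI, against 123, 85.9 and 94.3 in WT, with overlapping groups and a difference of -0.13 (limma adjusted p = 0.47).

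**Figure D2:**
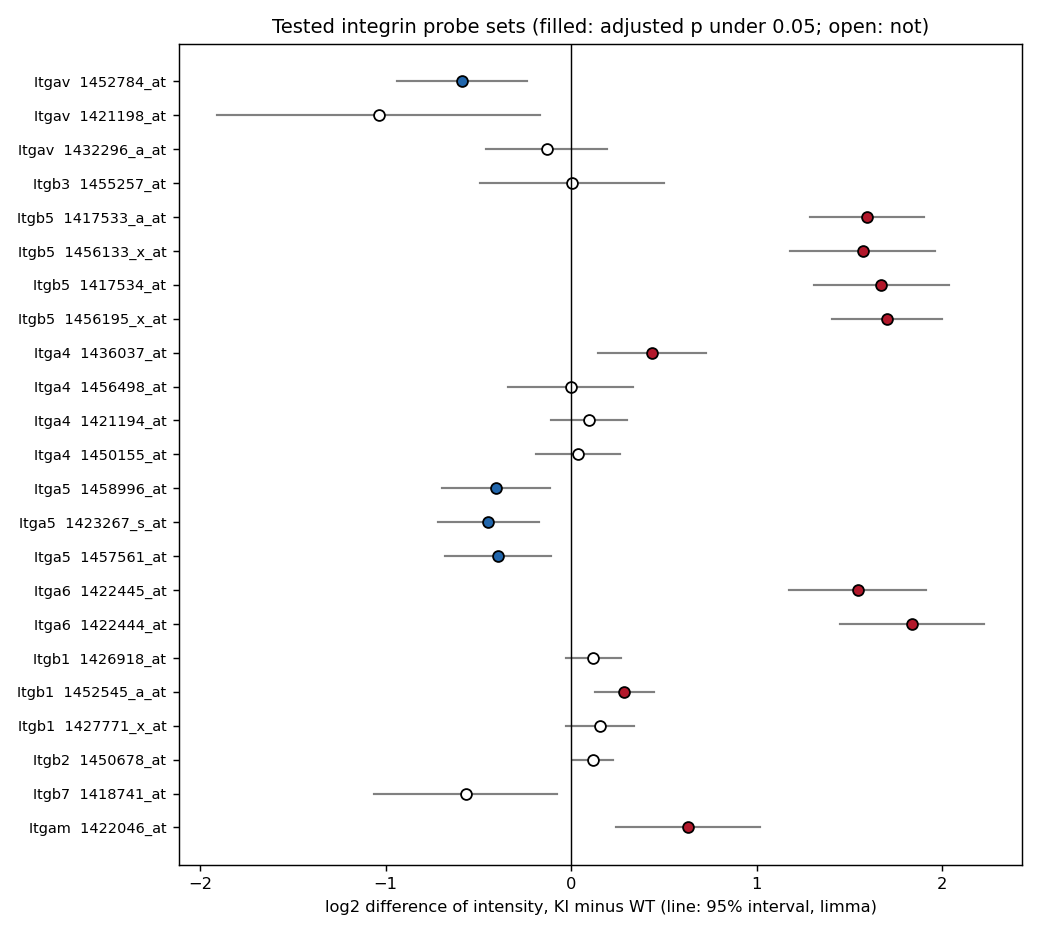
Log2 difference in intensity, KI minus WT, for the 23 tested probe sets of the 10 integrin genes, with 95% intervals from limma (x axis) and filled points for those past the threshold, red where higher and blue where lower. The Itgb5 and Itga6 probe sets lie between 1.54 and 1.84, the Itga5 probe sets between -0.45 and -0.39, and Itgb3 at 0.00.

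Itga6 rose on both of its probe sets. It codes for alpha 6, which binds laminin with beta 1 or beta 4. Probe set 1422444_at had 4383, 3816 and 3675 in KI, against 861, 1192 and 1314 in WT. The KI arrays were all above the WT arrays by a wide margin. The means were 3958 ± 375 in KI and 1122 ± 234 in WT (SD, n = 3 each), a fold of 3.57 and a difference of 1.84 (SE 0.16, 95% interval 1.45 to 2.23, limma adjusted p = 0.00066). Of all 22518 tested probe sets, 140 had a difference at least this high. Probe set 1422445_at had 11998, 11134 and 11252 in KI, against 3007, 4559 and 4414 in WT, a difference of 1.54 (SE 0.16, 95% interval 1.18 to 1.91, limma adjusted p = 0.00095). WT 1 was the lowest on both. The 6 probe sets of Itgb5 and Itga6 stayed higher in KI and past the threshold under all 19 alternatives run, with differences of 1.01 to 1.96 and adjusted p-values up to 0.0152 in limma.

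Itga5 fell. It codes for alpha 5, which with beta 1 is the fibronectin receptor, and 3 of its 4 probe sets were lower in KI. Probe set 1458996_at had 177.8, 215.04 and 176.1 in KI, against 282, 243 and 228 in WT, a difference of -0.41 (SE 0.12, limma adjusted p = 0.033). Probe set 1423267_s_at had 134, 154 and 174 in KI, against 204, 222 and 200 in WT, a difference of -0.45 (SE 0.11, limma adjusted p = 0.019). Probe set 1457561_at had 114, 140 and 131 in KI, against 188, 169 and 149 in WT, a difference of -0.39 (SE 0.12, limma adjusted p = 0.036). The groups did not overlap on any of the 3. The fourth, 1423268_at, was below the filter, with 52.4, 54.5 and 53.7 in KI, against 48.9, 52.0 and 48.0 in WT, which also do not overlap and lie the other way. The calls are close to the threshold: without the filter none of the 3 passed (limma adjusted p of 0.053 to 0.088), and leaving out WT 1, WT 2, KI 1 or KI 3 lost 2 or 3 of them.

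Itga4 gave different answers on its probe sets. It codes for alpha 4, the partner of beta 1 and beta 7. Probe set 1436037_at, the brightest, had 3167, 2674 and 2754 in KI, against 1807, 2183 and 2391 in WT, with no overlap. Its difference was 0.44 (SE 0.12, 95% interval 0.15 to 0.72) and was called higher (limma adjusted p = 0.026), but it was not called under the newer spike-in scaling (0.23, adjusted p = 0.095), was -0.09 under the older one, and lost its call without the filter (0.073), WT 2 (0.057), KI 1 (0.079) or KI 3 (0.065). The other 3 tested probe sets overlapped between groups. Probe set 1456498_at had 928, 744 and 743 in KI, against 941, 701 and 784 in WT, a difference of -0.00 (95% interval -0.34 to 0.33, limma adjusted p = 0.99). For 1421194_at, with 276, 262 and 272 in KI and 254, 233 and 271 in WT, the difference was 0.10 (95% interval -0.11 to 0.30, limma adjusted p = 0.39). For 1450155_at, with 211, 224 and 197 in KI and 196, 195 and 225 in WT, it was 0.04 (95% interval -0.19 to 0.27, limma adjusted p = 0.77). So 1 of 4 tested Itga4 probe sets was called.

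Itgb1, the common beta subunit of the matrix receptors, differed little. Probe set 1426918_at had 4427, 4746 and 4669 in KI, against 4465, 4104 and 4171 in WT, overlapping, with a difference of 0.12 (SE 0.062, limma adjusted p = 0.16). Probe set 1452545_a_at had 3721, 4185 and 3784 in KI, against 3240, 3190 and 3138 in WT, with no overlap. It was called higher, by 0.29 (SE 0.067, 95% interval 0.13 to 0.45, limma adjusted p = 0.014), but the difference was 0.08 (adjusted p = 0.55) under the newer spike-in scaling and -0.24 under the older one. Probe set 1427771_x_at had 321, 310 and 308 in KI, against 296, 272 and 273 in WT, with no overlap and a difference of 0.16 that did not pass (limma adjusted p = 0.14).

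Itgb7, the other beta partner of alpha 4, had a single probe set, 1418741_at, with 789, 962 and 827 in KI, against 1777, 1064 and 1081 in WT. All KI arrays were below all WT arrays, and WT 1 stood far above the other WT arrays. The difference of -0.57 (SE 0.21, 95% interval -1.06 to -0.07) did not pass the test (limma adjusted p = 0.062). It passed without WT 1, at -0.32 (limma adjusted p = 0.043), and under the newer spike-in scaling, at -0.77 (0.030).

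Itgam and Itgb2 code for alpha M and beta 2, the subunits of Mac-1. Itgam was higher in KI: probe set 1422046_at had 3425, 3356 and 3166 in KI, against 1661, 2222 and 2658 in WT. The KI arrays lay together and above a spread of WT arrays, of which WT 1 was the lowest. The means were 3316 ± 134 in KI and 2180 ± 500 in WT (SD, n = 3 each), a fold of 1.55 and a difference of 0.63 (SE 0.16, 95% interval 0.24 to 1.02, limma adjusted p = 0.020). The call was lost without the filter (0.067), under the older spike-in scaling (0.10, adjusted p = 0.75) and without KI 1 (0.060), KI 2 (0.052) or KI 3 (0.053). Itgb2, on probe set 1450678_at, had 11311, 11734 and 11435 in KI, against 10147, 10814 and 10830 in WT. The groups did not overlap, yet the difference of 0.12 (SE 0.046, 95% interval 0.01 to 0.23) did not pass (limma adjusted p = 0.074), passed after quantile normalization (0.15, adjusted p = 0.040), and was -0.09 and -0.41 under the spike-in scalings.

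Because 1 integrin needs 1 alpha and 1 beta subunit, the change of each pair's ratio was taken within arrays, where array scaling drops out. The pairs Itgb5 to Itgb3 and Itgb7 to Itgb1 are beta subunits that share an alpha partner, and form no integrin together. With 3 against 3 arrays, the smallest exact p is 0.1, so that none of the 9 pairs can pass 0.05. The log2 ratio of Itgav to Itgb5 was lower in KI, with the largest of the 9 differences (-2.19, SE 0.32). The ratios to Itgb3 rest on a probe set at the edge of the filter, limited by signal over background, and they carry the differences of Itgb5 (1.60) and Itgav (-0.59) with little of their own: 1.59 for Itgb5 to Itgb3 (SE 0.39) and -0.59 for Itgav to Itgb3 (SE 0.21, and -0.39 without KI 1). Among the beta 1 partners, the difference was 1.42 for Itga6 to Itgb1 (SE 0.24) and -0.53 for Itga5 to Itgb1 (SE 0.099). Itga4 to Itgb7 differed by 1.00 (SE 0.39), which was 0.65 without WT 1, and Itgb7 to Itgb1 by -0.69 (SE 0.22). Itgam to Itgb2 differed by 0.51 (SE 0.17). In these 8 pairs, 2 of them the ratios to Itgb3, the KI and WT arrays did not overlap (two-sided exact permutation p = 0.1, 0.112 after Benjamini-Hochberg adjustment over the 9 pairs). For single probe sets this held for 60.9% of all those tested, and for 8 of the 10 members by their brightest probe set. The pairs share genes, so they are not separate results, and no share was taken over ratios of other genes. Itga4 to Itgb1 overlapped, with a difference of 0.32 (SE 0.19, exact permutation p = 0.2), which was 0.17 without WT 1 and -0.02 with 1 mean per gene. The ratios rest on 1 probe set per gene, the brightest, and on transcripts, not on subunits at the surface.

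**Figure D3:**
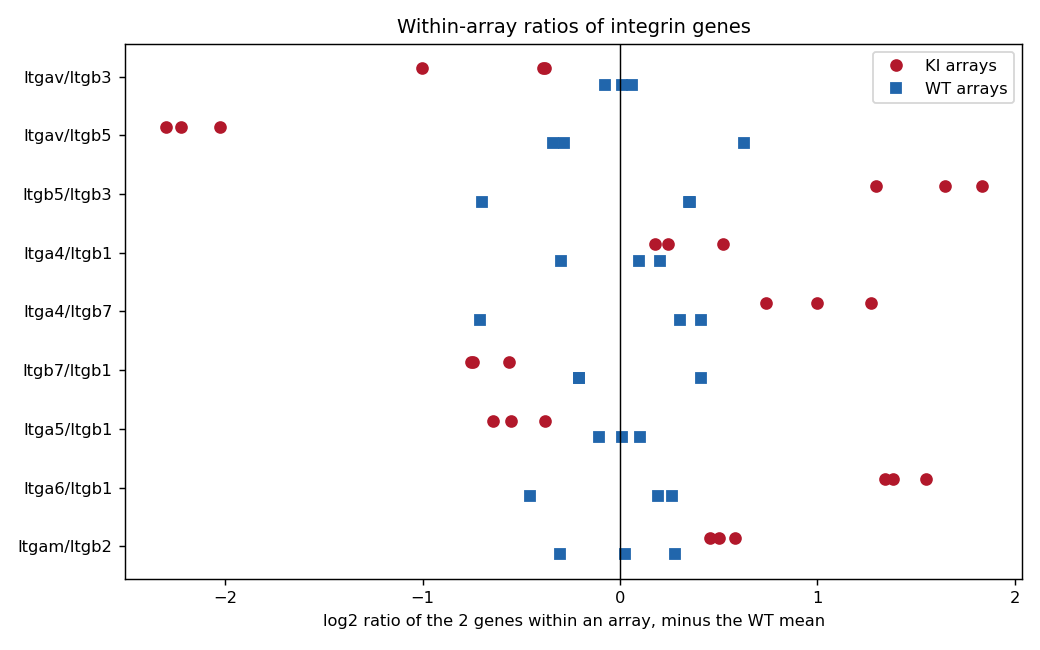
Within-array log2 ratio of 2 integrin genes for 9 pairs, each shown relative to its WT mean (x axis), with 1 point per array and KI (circles) above WT (squares). Itgb5 to Itgb3 and Itgb7 to Itgb1 set a beta against a beta subunit, and the other pairs an alpha against a beta. The KI arrays lie below the WT arrays for Itgav to Itgb5 (difference -2.19) and above them for Itga6 to Itgb1 (difference 1.42).

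The other genes of the integrin system were read from a fit with 1 probe set per gene over 18193 genes, without the filter, in which 11.9% of all genes were higher and 14.9% lower in KI (limma, adjusted over all genes), with a median difference of -0.00. In that fit 3 of the 10 subunit genes were higher (Itgb5, Itga6 and Itgam, the last with adjusted p = 0.047) and 1 lower (Itgav, adjusted p = 0.046). Itga4 (adjusted p = 0.053) and Itga5 (-0.41, adjusted p = 0.064), whose brightest probe sets were called above, did not pass. Of 14 other integrin subunits measured, 1 was higher and 0 lower (1 at an unadjusted p under 0.05), with a median of 0.04. Above the filter were all 10 subunit genes and 5 of these 14, against 10941 of all 18193 genes, so the bases are unlike. The one that rose was Itgal, the alpha L of LFA-1, a leukocyte partner of beta 2. It had 2537, 3225 and 2850 in KI, against 911, 838 and 805 in WT, a difference of 1.75 (SE 0.10, limma adjusted p = 0.0012). Itgax, the alpha X of the other complement receptor, had 117, 108 and 87.1 in KI, against 86.6, 105 and 121 in WT, with full overlap.

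**Figure D4:**
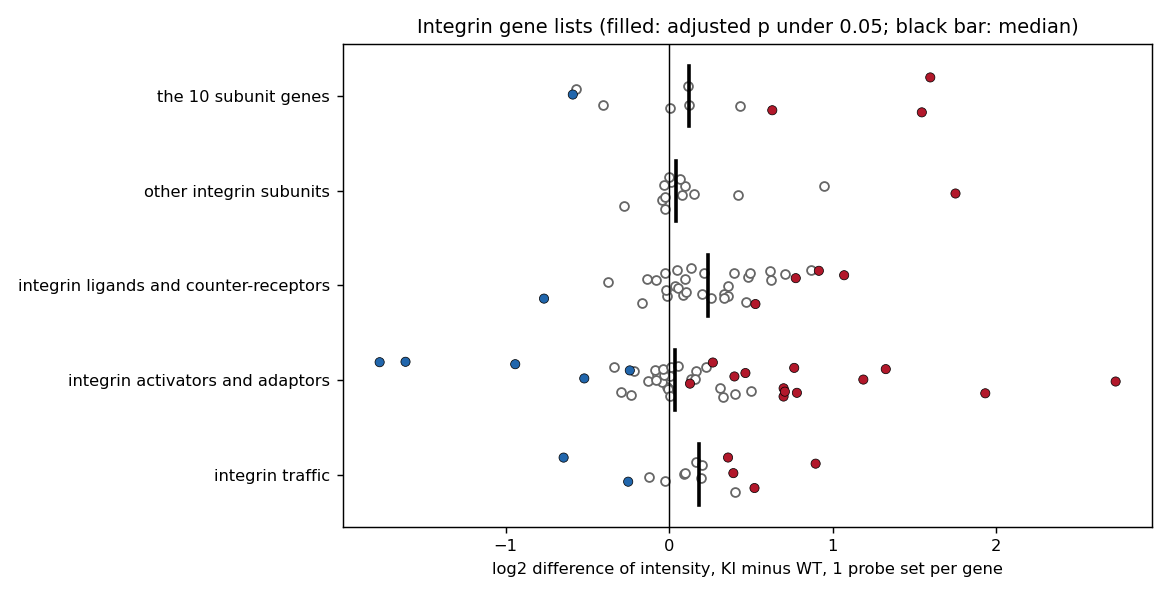
Log2 differences, KI minus WT, of the measured genes of the 4 integrin lists and of the 10 members, from the fit of 1 probe set per gene; each point is a gene, filled where past the threshold, and a black bar marks the median. Src lies at -1.77 and Rasgrp3 at 2.73 among the activators and adaptors, and Itgal at 1.75 among the other subunits.

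Among integrin ligands and counter-receptors, 4 of 34 measured genes were higher in KI, against 11.9% of all genes. Of the rest, 1 was lower, against 14.9%, and 29 did not pass the test, with a median of 0.24. In all, 14.7% of this list passed, against 26.8% of all genes. Tgfbi, a matrix protein that integrins bind, had 16111, 15194 and 14984 in KI, against 6627, 9309 and 8860 in WT, a difference of 0.92 (SE 0.14, limma adjusted p = 0.0088). Adam15, a membrane metalloproteinase whose disintegrin domain binds integrins, was higher by 0.77 (SE 0.054, limma adjusted p = 0.0019). Mfge8, the milk fat globule protein that bridges apoptotic cells to alpha v integrins, had 1022, 927 and 1058 in KI, against 788, 694 and 611 in WT, a difference of 0.53 (SE 0.11, limma adjusted p = 0.022). Its call was lost without WT 2, KI 1 or KI 3 and under the spike-in scalings, where it was 0.32 (adjusted p = 0.087) and -0.0023. Lama3, a laminin chain, was higher by 1.07 (SE 0.10, limma adjusted p = 0.0032), at intensities of 74.2, 70.1 and 72.3 in KI, against 38.1, 35.8 and 29.7 in WT, below the filter. Its size is not exact at such low signals: it was 0.65 with an offset of 32 and 0.52 with 1 mean per gene. Icam1, the ligand of Mac-1 and LFA-1 on other cells, fell: it had 2031, 1877 and 1974 in KI, against 2902, 3370 and 3774 in WT, a difference of -0.76 (SE 0.10, limma adjusted p = 0.0071). With the description number as a covariate, the calls of Icam1 (adjusted p = 0.055), Tgfbi (0.059) and Mfge8 (0.093) were lost.

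The 2 fixed matrix ligands of alpha v and alpha 5 did not pass. Fn1, fibronectin, had 1238, 742 and 1312 in KI, against 1223, 726 and 375 in WT, a difference of 0.62 (SE 0.47, limma adjusted p = 0.41) with wide overlap. Single arrays set its size, which was 0.17 without WT 3 and 1.03 without WT 1, and 0.26 with 1 mean per gene. Vtn, vitronectin, was below the filter and differed by 0.04 (limma adjusted p = 0.68). Spp1, osteopontin, was not measured by a probe set of its own in the annotation used here. Stromal markers, which share matrix genes with this list, had summed intensities of 2785 to 10480 in KI and 2885 to 9094 in WT, and their part in these values was not tested. Of 8 measured, Dcn alone was called. It was lower in KI, with 62.5, 63.5 and 57.0, against 196, 162 and 142 in WT, a difference of -1.44 (limma adjusted p = 0.0030).

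Among integrin activators and adaptors, mostly cytoplasmic proteins that act on integrins or carry their signals, 13 of 44 measured genes were higher in KI, against 11.9% of all genes. The list also holds genes that switch signals off, such as Sipa1, so this is no count of raised activators. A further 5 were lower, against 14.9%, and the median was 0.04. Above the filter were 39 of the 44, against 10941 of all 18193 genes, so these shares have unlike bases. Src, the kinase that beta 3 integrin activates in the osteoclast's sealing zone, fell: it had 363, 374 and 407 in KI, against 1176, 1319 and 1412 in WT, a difference of -1.77 (SE 0.090, limma adjusted p = 0.0010). Lims2, the PINCH2 adaptor, had 154, 184 and 188 in KI, against 629, 512 and 471 in WT, a difference of -1.61 (SE 0.14, limma adjusted p = 0.0028). Rapgef1, an exchange factor that activates Rap1, was lower by a log2 difference of -0.94 (SE 0.091, limma adjusted p = 0.0033). The other genes of this list that were lower, Pxn (paxillin, -0.52, limma adjusted p = 0.0039) and Tns3 (a tensin, -0.24, limma adjusted p = 0.012, and 0.056 without KI 3), are named after their values were seen. On the other side, Sipa1, which switches Rap1 off, was higher by 0.70 (SE 0.063, limma adjusted p = 0.0029), and Dock1, an exchange factor for Rac, by 0.71 (SE 0.058, limma adjusted p = 0.0025). With 1 mean per gene, Dock1 differed by 0.34 (adjusted p = 0.030) and Rapgef1 by -0.59 (0.0075).

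Ptk2b, the Pyk2 kinase downstream of osteoclast integrins, was higher: it had 709, 729 and 776 in KI, against 387, 454 and 449 in WT, a difference of 0.78 (SE 0.085, limma adjusted p = 0.0044), but 0.36 (adjusted p = 0.102) with 1 mean over its probe sets. Fermt3, the kindlin of blood cells, was higher by 0.13 (SE 0.035, limma adjusted p = 0.048), a call lost when any 1 array was left out (adjusted p of 0.075 to 0.122), and a difference that was -0.08 and -0.40 under the spike-in scalings. Tln1, talin, did not pass, at -0.02 (limma adjusted p = 0.87). The list's highest differences, also named after their values were seen, were those of Rasgrp3, an exchange factor for Rap1 and Ras, and Dab2, an endocytic adaptor that binds beta integrin tails. Rasgrp3 had 2146, 1187 and 1516 in KI, against 101, 337 and 389 in WT, a difference of 2.73 (SE 0.56, limma adjusted p = 0.021), and lost its call without KI 1 (0.072) or KI 3 (0.073). Dab2 had 11896, 12948 and 12891 in KI, against 2375, 3977 and 3776 in WT, a difference of 1.93 (SE 0.21, limma adjusted p = 0.0042). With the description number as a covariate, the calls of Rasgrp3 (adjusted p = 0.091), Tns3 (0.076) and Fermt3 (0.111) were lost. The split of the lists moved with the scaling. By the newer spike-ins, 9 activators and adaptors were higher and 11 lower, and 4 ligands were higher and 3 lower. By the older ones, 4 activators and adaptors were higher and 15 lower, while 0 ligands were higher (1 at an unadjusted p under 0.05) and 6 lower by limma, so that Adam15, Lama3, Tgfbi, Dock1, Sipa1 and Ptk2b, all still above 0, were no longer called.

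The genes whose log2 values followed an integrin gene most closely over the 6 arrays were taken from 10940 genes above the filter by Pearson r. For Itgb5 they were Diaph2, Cds1 and B430306N03Rik, each with r of 0.999, and 1134 genes had r over 0.95. For Itgav they were Nt5c3b, Dnaaf2 and Abcc10, each with r of 0.999, and 1367 genes had r over 0.95. For Itgb3 they were Trim33, Mob2 and Ttbk1, with r of 0.963, 0.962 and 0.960, and 6 genes had r over 0.95. The points of each correlation share the same 6 arrays, whose main difference is the genotype, so the values are a description with no test.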

How the data were processed

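Total RNA of the cultures was hybridised to 6 Affymetrix mouse 430 2.0 arrays. The deposited intensities, on a linear scale, were made by the authors with Affymetrix Expression Console, per the submitters' processing notes; for its version, summarisation and normalization, nothing is stated in these sources. Of 45101 probe sets, 64 controls were left out, and 34945 had 1 gene symbol, 932 several and 9160 none; 34741 matched a GRCm38.p6 gene table by gene identifier. Those with several symbols named no gene. Samples were grouped by genotype as the labels give it.

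Intensities were floored at 16 (5.47% of values lay below) and log2 transformed. Probe sets whose mean lay above the median of the non-control ones were tested (22518) with limma 3.58.1 in R 4.3.3 (lmFit, eBayes with a trend) and Benjamini-Hochberg adjustment at 0.05. Pathway lists and cell markers used each gene's brightest probe set, without the filter (18193 genes). Ratios of partner genes were compared by two-sided exact permutation tests. The steps were tested on simulated data. The number of arrays limits the precision.

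The members, lists and tests were chosen with earlier results of these data known. Named genes were all members, up to 5 genes per list with the smallest p past the threshold, 9 fixed genes, and the 3 closest in pattern to Itgb3, Itgb5 and Itgav; 5 more are marked in the text. Alternatives were quantile normalization, a common median, 2 spike-in scalings, no filter, the brightest 30%, an offset of 32, weighted arrays, a replicate block, 2 further variance priors, the description number as a covariate, dropped arrays, a mean over each gene's probe sets, and dropping probe sets that match several transcripts. Replicate numbers are shared by the genotypes, and the labels do not say whether they mark pairs. Same-numbered arrays did not deviate in the same direction (correlations of -0.40, -0.29 and -0.30), which cannot exclude pairing. They were not treated as pairs in the main fit, and the replicate block is the alternative that does so.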

Additional observations from a re-analysis of the deposited data

How the results depend on the processing

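Over the alternatives, 339 of 427 refitted member probe-set values kept direction and call, 41 lost the call, 17 gained it and 30 turned sign; the cause was not tested. Member probe sets called lower numbered 7 by the older spike-ins, 0 without the filter (5 at an unadjusted p under 0.05, with 7 called higher, by limma), 1 in the brightest 30%, 0 under the replicate block (5 unadjusted, with 6 higher), 1 with the description number as a covariate, and 1 to 5 leaving out 1 array. By the newer spike-ins, calls were 1 lower among other subunits, 3 lower among ligands, 11 lower among activators and 2 higher in traffic. By the older ones they were 4 lower among other subunits, 0 higher and 6 lower among ligands, 4 higher and 15 lower among activators, and 0 higher in traffic. Array weights gave 1 lower other subunit and 8 higher traffic genes. The replicate block gave 2 higher and 0 lower ligands (1 unadjusted), 1 higher and 1 lower activator, and 0 higher (5 unadjusted) and 0 lower traffic genes (2 unadjusted). Samples share only that number: in 0 of 6 arrays was the best correlation with the own number. With the covariate, calls were 2 higher and 0 lower ligands (2 unadjusted), 5 higher activators, and 1 higher and 1 lower traffic gene. Without WT 1 and KI 1, 0 traffic genes were lower (2 unadjusted). Leaving out 1 array gave 0 to 1 lower other subunits, 7 to 13 higher activators, 2 to 4 higher and 0 to 1 lower traffic genes. Over all probe sets, calls split 4345 higher and 5756 lower as deposited, 2546 and 9011 by the newer spike-ins, 728 and 10586 by the older ones, 2693 and 3491 under the block, and 2844 and 3637 with the covariate.

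Signs turned as follows, with the newer and then the older spike-ins: -0.11 and -0.43 for Itga4 1421194_at, -0.17 and -0.49 for Itga4 1450155_at, -0.086 and -0.41 for Itgb1 1426918_at, -0.050 and -0.37 for Itgb1 1427771_x_at, -0.088 and -0.41 for Itgb2 1450678_at, -0.20 and -0.53 for Itgb3 1455257_at, -0.20 and -0.53 for Itgax, -0.17 and -0.49 for Vtn, and -0.079 and -0.40 for Fermt3. By the older spike-ins alone they were -0.095 for Itga4 1436037_at, -0.24 for Itgb1 1452545_a_at, -0.0023 for Mfge8, -0.0081 for Rab11a, -0.14 for Gga3 and -0.17 for Rab5c. With array weights they were 0.021 for Itga4 1456498_at, -0.036 for Itga4 1450155_at, -0.061 for Itgb3, 0.021 for Itgav 1432296_a_at, -0.21 for Itgax and 0.0099 for Tln1. Quantile normalization gave 0.048 for Itga4 1456498_at, a common median gave -0.00042 for Itgax, and the covariate gave 0.20 for Itga4 1456498_at and -0.034 for Vtn. Without WT 1 and KI 1, values were 0.0048 for Itga4 1456498_at, 0.027 for Itgav 1432296_a_at and -0.22 for Itgax. Leaving out 1 array gave -0.11 to 0.11 for Itga4 1456498_at, -0.0074 to 0.11 for Itga4 1450155_at, -0.14 to 0.20 for Itgb3, -0.24 to 0.017 for Itgav 1432296_a_at, -0.13 to 0.12 for Itgax, -0.014 to 0.070 for Vtn and -0.046 to 0.019 for Tln1. With 1 mean per gene, the ratio of Itga4 to Itgb1 was -0.019. Probe sets near the filter, such as those of Itgb3 and the third Itgav set, are limited by signal over background.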

Other observations

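Of 14 genes of integrin traffic, which carry integrins to and from the cell surface, 4 were higher in KI, against 11.9% of all genes, and 2 lower, against 14.9% (limma, adjusted over all genes), with a median log2 difference of 0.18. Above the filter were 13 of the 14, against 10941 of all 18193 genes, so these shares have unlike bases. Among all tested probe sets, 19.3% were higher and 25.6% lower. Hps3, a subunit of the lysosome-related organelle complex BLOC-2, had 2548, 2303 and 2255 in KI, against 1161, 1296 and 1365 in WT, a difference of 0.90 (SE 0.083, limma adjusted p = 0.0031), which was 0.46 with 1 mean per gene and 0.37 (adjusted p = 0.216) under the older spike-in scaling. Rab11a, the GTPase of the slow recycling endosome, had 9003, 9434 and 9676 in KI, against 5976, 6759 and 6872 in WT, a difference of 0.52 (SE 0.067, limma adjusted p = 0.0064), which was -0.0081 under the older spike-in scaling and lost its call with the description number as a covariate (adjusted p = 0.052). Gga3, a sorting adaptor of endosomes, was higher by 0.39 (SE 0.090, limma adjusted p = 0.028), which was -0.14 under the older spike-in scaling. Rab5c, a GTPase of early endosomes named after its value was seen, was higher by 0.36 (SE 0.096, limma adjusted p = 0.043), which was -0.17 under that scaling. Rab11fip1, an effector of Rab11, was lower, with a difference of -0.64 (SE 0.14, limma adjusted p = 0.025). It had 80.8, 68.0 and 85.4 in KI, against 140, 106 and 121 in WT, close to the filter at 84.7. Its size is not exact at such low signals, and was -0.48 with an offset of 32. Rab21, a GTPase that binds integrin tails, was also lower, with a difference of -0.25 (SE 0.064, limma adjusted p = 0.039). With the description number as a covariate, the calls of Gga3 (adjusted p = 0.066), Rab5c (0.203) and Rab11fip1 (0.127) were lost too. The calls of Gga3, Rab5c, Rab11fip1 and Rab21 were each lost when any of 4 to 6 single arrays was left out (adjusted p up to 0.135). Over the same arrays, 6 of 7 macrophage markers were higher and 7 of 8 osteoclast markers lower in KI, and their part in these values was not tested. By the newer spike-ins 2 of the 14 were higher and 2 lower, and by the older ones 0 were higher (0 at an unadjusted p under 0.05) and 3 lower by limma.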
